A study of Mus musculus with 12 samples.

Results

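Ion channels that open to potassium, sodium or calcium were followed in mouse macula densa cells, the salt-sensing cells where the thick ascending limb meets its own glomerulus, and in other cells of the kidney cortex. The genes were those whose symbols begin with Kcn, Scn or Cacn followed by a subunit letter or number, which took in voltage-gated calcium, sodium and potassium channels, calcium-activated, inward rectifier and two-pore-domain potassium channels, and their accessory subunits. Kcnj1, Kcnj10 and Kcnj16 were left out, as were symbols ending in os or -ps. Of 106 gene rows with such a name, 103 were kept, out of 23378 genes in the count table. Classes rest on gene symbols alone, which also place Cacng2, Cacng4 and Cacng7 among the calcium channel accessory subunits. By symbol, 10 encode calcium channel pores, 11 calcium channel accessory subunits, 10 sodium channel pores, 4 sodium channel beta subunits and 30 voltage-gated potassium channel pores. A further 8 encode calcium- or sodium-activated potassium channels, 9 inward rectifiers, 10 two-pore-domain channels and 9 potassium channel accessory subunits, and 2 are noncoding (Kcnq1ot1 and Kcnmb4os2).

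The study sequenced total RNA from 12 samples of sorted cells. All mice were C57BL/6 animals of the nNosCreERT2-mTmG model, in which a Cre recombinase driven from the neuronal nitric oxide synthase gene (Nos1) switches a membrane reporter from red tdTomato to green GFP. Green cells were collected as macula densa cells, and the cells with the most intense red were collected as control cells, which the labels take to stand for distal tubule and collecting duct epithelium. For 14 days mice had either a control diet or a combination of low salt food and drinking water with 150 mg/L of enalapril, which inhibits angiotensin-converting enzyme (ACE); the combination is written LS+ACEi here. The 4 groups were macula densa cells on control diet (2 libraries), macula densa cells on LS+ACEi (2), control cells on control diet (4) and control cells on LS+ACEi (4). The green population is thus any cell in which the Nos1-driven Cre had switched the reporter. Both populations are bulk RNA, in which fewer cells of a type and less RNA per cell cannot be told apart. The labels do not say which libraries came from separate animals, so p-values measure the spread between these libraries, which may be partly technical. Age and sex are not in the labels.

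Voltage-gated calcium channels admit calcium when the membrane depolarises, and the L-type members encoded by Cacna1c and Cacna1d carry long-lasting currents that drive contraction, secretion and pacemaking. Sodium channel beta subunits are single-pass membrane proteins that tune the gating and surface level of sodium channel pores. Potassium channels set the resting potential and end depolarisation, and in the thick ascending limb and macula densa potassium recycling across the apical membrane keeps the Na-K-2Cl cotransporter (Slc12a1) supplied, which is the first step of salt sensing.

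Library totals ran from 4259020 to 14856542 counts, of which 53.5% to 65.0% belonged to Gm42418, a noncoding gene over ribosomal RNA sequence, and 781257 to 2331481 counts lay in nuclear protein-coding genes. The channel genes together received only 1023 to 3488 counts per library, so a single gene often rested on a handful of reads. Levels are counts per 1000000 (CPM) relative to a library total scaled by trimmed means of M values (TMM), and 3 counts corresponded to 0.231 to 0.734 CPM. The labels of the sort held for its marker genes: Nos1 was at 100 to 232 CPM in macula densa libraries and at 0.109 to 0.734 CPM in control cells, and Pappa2 at 228 to 774 against 0 to 1.22 CPM. The thick ascending limb gene Slc12a1 was at 1770 to 2030 CPM in macula densa cells and at 41.8 to 430 CPM in control cells. Control-cell libraries were mixed: summed markers of podocytes ranged from 43.7 to 1350 CPM, of endothelium from 46.4 to 1560 and of collecting duct principal cells from 102 to 808, against at most 153, 177 and 36.0 CPM in macula densa libraries. Macula densa libraries also held other markers. Those of proximal tubule summed to 39.1 to 172 CPM against 24.8 to 82.6 CPM in control cells. Those of distal convoluted and connecting tubule summed to 75.1 to 170 against 69.1 to 641 CPM. Control-cell replicate 4 on control diet stood apart, with the least podocyte and endothelium signal and the most principal cell and intercalated cell signal (808 and 350 CPM). Its counts differed from those of the other 3 libraries of its group by 39.2 to 60.4 chi-square units per degree of freedom, where those 3 differed among themselves by 12.2 to 21.2.

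Promoters are shown for 3 calcium channel genes whose differences between populations held in all 19 alternative analyses over both diets. In the order printed they are the pore gene Cacna1d (higher in macula densa cells), the accessory gene Cacna2d1 (higher) and the pore gene Cacna1c (lower). The 2 pores are L-type and differed in opposite directions. Cacnb2 also held in all 19 and is not shown. Each promoter shown runs from 250 bases before the RefSeq start of the transcript to 20 bases after it, on the coding strand of build GRCm38.p6. The first spans chr14:30491137-30491406 on the minus strand, the second chr5:15934441-15934710 on the plus strand and the third chr6:119196390-119196659 on the minus strand. Capitals mark the letters TATAAA in Cacna1d and GGGCGG in Cacna2d1, read on either strand.
Cacna1d: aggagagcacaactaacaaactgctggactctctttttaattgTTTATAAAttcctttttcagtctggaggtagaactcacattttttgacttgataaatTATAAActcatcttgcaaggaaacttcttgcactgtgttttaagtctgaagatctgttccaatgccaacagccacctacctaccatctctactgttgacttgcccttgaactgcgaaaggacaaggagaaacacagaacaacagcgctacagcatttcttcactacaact
Cacna2d1: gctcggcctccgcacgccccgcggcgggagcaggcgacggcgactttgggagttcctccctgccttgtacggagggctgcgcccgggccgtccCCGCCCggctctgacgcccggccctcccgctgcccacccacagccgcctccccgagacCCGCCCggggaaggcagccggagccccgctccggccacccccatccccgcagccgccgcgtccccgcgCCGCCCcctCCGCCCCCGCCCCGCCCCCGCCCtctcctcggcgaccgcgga
Cacna1c: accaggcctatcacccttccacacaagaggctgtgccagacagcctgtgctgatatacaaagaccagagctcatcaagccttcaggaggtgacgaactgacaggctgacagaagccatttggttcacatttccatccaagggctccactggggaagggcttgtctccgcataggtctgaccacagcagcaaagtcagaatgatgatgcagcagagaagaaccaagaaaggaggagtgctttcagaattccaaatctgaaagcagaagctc

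The 3 promoters differed in base composition. Over the whole 300 bases of the RefSeq window, Cacna1d held 40.3% G and C, Cacna1c 51.3% and Cacna2d1 80.0%, beside a median of 61.7% over the 71 channel genes with a RefSeq promoter and 52.7% over all 32851 promoters. Cacna2d1 carried 42 CpG dinucleotides and 7 matches to GGGCGG, the letters of the GC box, 5 of them packed within the last 31 bases before the start. That motif was present in 36 of 71 channel promoters (50.7%) and in 35.7% of all promoters of the same length. Cacna1d carried 3 matches to TATAAA, a pair that overlaps on opposite strands at -207 and -205 and one at -150 bases from this start, and the motif was present in 3 channel promoters (4.23%) and in 13.6% of all promoters. Neither motif matched in Cacna1c. The GENCODE annotation places the outermost start of Cacna1d 299 bases further upstream, so its window lies inside that longer transcript.

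Many channel genes were near or below detection in macula densa cells. At most 3 counts in every library were found for 46 of the 103 genes in macula densa cells on control diet (20 of them at 0 in both libraries) and for 41 on LS+ACEi (15 at 0). In control cells, which had 4 libraries per group and so more chances of a read, the numbers were 18 and 17, and no gene was at 0 in every library of a group. A total of 25 genes were at this floor in both macula densa groups, and 23 of these were not at the floor in both control-cell groups, among them the N-type and skeletal muscle calcium channel pores Cacna1b and Cacna1s, the delayed rectifiers Kcna2 and Kcnq5, the ATP-sensitive channel Kcnj11, the mechanically gated channel Kcnk2 and the sodium channel pore Scn10a. Conversely, 7 were at the floor in both control-cell groups and not in both macula densa groups: Cacng2, Kcna1, Kcnd1, Kcnd2, Kcnk4, Kcnn4 and Scn4a. Only Cacna1f and Kcnu1 were at the floor in all 4 groups. Being at the floor is not a call. Kcna2, one of the 23, was tested and not called over both diets (edgeR adjusted p = 0.154). Cacna1b had 3 counts in macula densa and 18 in control cells, a ratio of 2.79 with a counting interval of 0.815 to 14.8. The same counts over all genes are not given, so these numbers do not set channel genes apart from other genes. A value of 0 or 3 counts is limited by depth, and these limits cover counting error only, since the reads carry no molecular identifiers.

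Compared per kilobase of exon, the most abundant channel transcript in each of the 4 groups was Kcnk1, a two-pore-domain potassium channel that carries background current, at 12.4 and 14.1 CPM per kb in macula densa cells on control diet and on LS+ACEi, and at 8.23 and 12.1 in control cells. Scn4b, the beta-4 sodium channel subunit, came next in macula densa cells at 9.42 and 7.83 CPM per kb, against 1.85 and 1.56 in control cells. In control cells Kcne1, the beta subunit of the Kcnq1 potassium channel, came next at 5.18 and 2.59 CPM per kb against 0.229 and 0.872 in macula densa cells, beside Kcnq1 at 3.55 and 2.59 against 0.904 and 0.779. Cacna1d followed in macula densa cells at 2.07 and 2.37 CPM per kb.

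Of the 103 genes, 52 had enough counts to be tested, and the other 51 reached at most a group mean of 1.52 CPM (Kcna4). Calls are genes with an edgeR quasi-likelihood p-value, adjusted by the Benjamini-Hochberg method over all 14180 genes tested, of at most 0.05. Averaged over both diets, 20 of the 52 were called between macula densa and control cells, where 21.3% of all genes tested were called. A total of 8 were higher in macula densa cells (15.4%, against 7.48% of all genes) and 12 lower (23.1%, against 13.9%). At an unadjusted p under 0.05 the count was 26 (50%, against 34.4%). The median log2 fold change of the 52 genes was -0.96, and that of all genes was -0.06. On control diet alone 10 were called (6.61% of all genes), 5 higher (2.69%) and 5 lower (3.92%), with 24 at an unadjusted p under 0.05 (46.2%, against 24.2%). On LS+ACEi alone 7 were called (7.27%), 4 higher (3.15%) and 3 lower (4.13%), with 16 at an unadjusted p under 0.05 (30.8%, against 25.3%). These 3 comparisons share their libraries and are not independent of each other. For the refits that follow, the share of all genes called is not given, so the moves cannot be read as particular to channel genes. Single libraries moved the counts within a diet: on control diet the edgeR count was 1 without macula densa replicate 1, 0 without replicate 2 (17 at an unadjusted p under 0.05), and 4, 5 and 17 when control-cell replicate 2, 3 or 4 was left out. On LS+ACEi it was 0 without macula densa replicate 1 (21 at an unadjusted p under 0.05), 1 without replicate 2, 3 without control-cell replicate 1, 2 or 4 of that diet, and 4, 3 and 12 without replicates 2, 3 and 4 of the control diet, which share the estimate of the spread. The count averaged over both diets moved between 14 and 21, and was 21 (8 higher, 13 lower) without the control-cell library that stood apart.

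**Figure D1:**
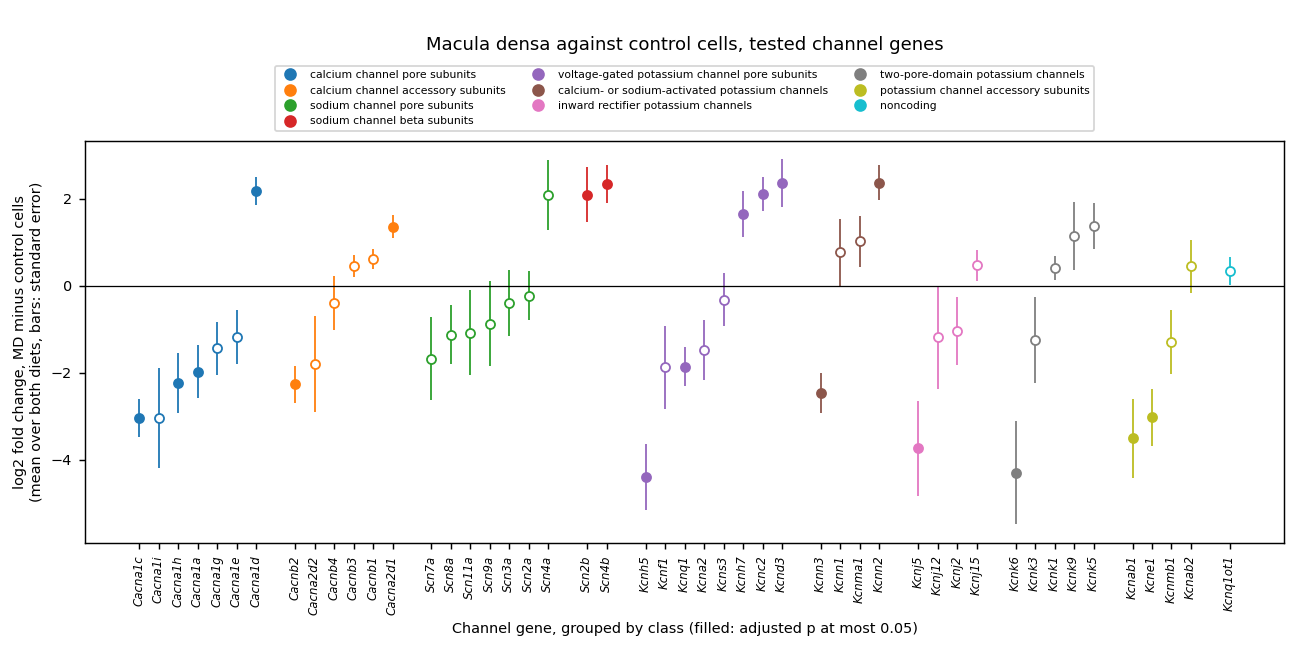
Log2 fold change between macula densa and control cells, averaged over both diets, for 48 of the 52 tested channel genes, grouped by class on the horizontal axis; points are estimates of the edgeR fit, bars standard errors, and filled points have an adjusted p of at most 0.05. Kcng2, at 0 in all macula densa libraries, is left out, and the fitted points of Cacna1i and Kcnab1 depend on the fit's handling of 0, since 1 macula densa group had no counts. Calcium channel pores lie on both sides of 0, with Cacna1d at 2.18 and Cacna1c at -3.05.

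Calcium channel pores differed in composition. Cacna1d (Cav1.3, an L-type pore that opens at lower voltage; chr14:30039939-30491455) was at 23.0 and 29.3 CPM in macula densa libraries on control diet and at 25.1 and 34.8 CPM on LS+ACEi. In control cells it was at 3.06, 4.23, 5.33 and 7.23 CPM on control diet and at 8.22, 3.92, 14.7 and 4.17 CPM on LS+ACEi. All 4 macula densa libraries were above all 8 control-cell libraries in CPM. Thick ascending limb markers summed to 2440 to 4280 CPM in macula densa and 216 to 1620 CPM in control cells (4 of 8 called higher over both diets). These sums include Slc12a1, which macula densa cells also express. It gave 1770 of 3370 and 2030 of 4280 CPM in macula densa libraries on control diet, and 1870 of 2440 and 2010 of 2590 CPM on LS+ACEi. In the control-cell library with the highest sum it gave 309 of 1620 CPM. Per 1000 counts of the limb gene Slc12a1 the direction turned, at 13.0 to 17.3 in macula densa and 20.2 to 73.3 in control cells. Slc12a1 itself had a log2 fold change of 3.28 averaged over diets, and a gene raised by less tends to have a lower ratio. The ratio alone thus does not measure limb content, and the part of limb content in the result was not tested. The log2 fold change of Cacna1d was 2.39 ± 0.45 (standard error) on control diet (edgeR adjusted p = 0.00982) and 1.96 ± 0.45 on LS+ACEi (edgeR adjusted p = 0.0252). Its 3′ end overlaps that of Chdh on the opposite strand, and without knowledge of the strand setting of the counting, reads of the pair cannot be told apart. Chdh itself was at 39.5 to 48.6 CPM in macula densa cells and at 15.7 to 51.2 CPM in control cells.

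Cacna1c (Cav1.2, the L-type pore of heart and smooth muscle; chr6:118587240-119196418) went the other way. It was at 0.616 and 0.652 CPM in macula densa cells on control diet and at 0.383 and 0.656 on LS+ACEi, which is 2 to 8 counts per library. Control cells held 4.81, 2.63, 4.29 and 2.58 CPM on control diet and 3.30, 12.7, 5.67 and 5.90 CPM on LS+ACEi. Again no library of one population reached the range of the other. The log2 fold change was -2.47 ± 0.58 on control diet (edgeR adjusted p = 0.0284) and -3.64 ± 0.67 on LS+ACEi (edgeR adjusted p = 0.00862). Smooth muscle and renin cell markers, which summed to 20.3 to 41.8 CPM in macula densa libraries and 122 to 536 CPM in control cells (4 of 6 called lower), moved with it, and their part in the result was not tested.

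The P/Q-type pore Cacna1a and the T-type pore Cacna1h, which opens near rest, were called lower only in the comparison averaged over diets, with log2 fold changes of -1.98 ± 0.61 and -2.23 ± 0.69 (edgeR adjusted p = 0.0366 and 0.0374). Cacna1a was at 2.67 and 0.815 CPM in macula densa cells on control diet against 9.19, 8.83, 9.33 and 3.72 in control cells, and at 2.11 and 0 on LS+ACEi against 2.15, 6.37, 2.10 and 3.76. Without macula densa replicate 1 or 2 of LS+ACEi its value moved to -5.05 or -1.44. Cacna1h was at 0 to 0.766 CPM in macula densa cells and at 0.381 to 2.31 CPM in control cells, and rested on 3 counts in the control-diet macula densa group, a ratio of 6.25 to control cells with a counting interval of 1.96 to 31.8. The Cacna1h value was -3.89 when the second macula densa library on control diet was left out. These calls were among the least steady, holding in 10 and 9 of 19 alternative analyses.

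As a share of the summed CPM per kb of all 10 calcium channel pores, Cacna1d made up 84.5% and 93.0% in macula densa cells on control diet and 82.1% and 91.6% on LS+ACEi. In control cells it made up 14.0%, 19.3%, 24.7% and 49.9% on control diet and 45.8%, 13.8%, 53.5% and 22.1% on LS+ACEi. Cacna1a took 8.44% to 47.8% and Cacna1c 7.15% to 26.8% in control cells, against 0% to 10.8% and 0.747% to 1.35% in macula densa cells. Each library's shares rest on 129 to 387 counts. The library with a high Cacna1d share in control cells on control diet, replicate 4, is the one that stood apart.

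**Figure D2:**
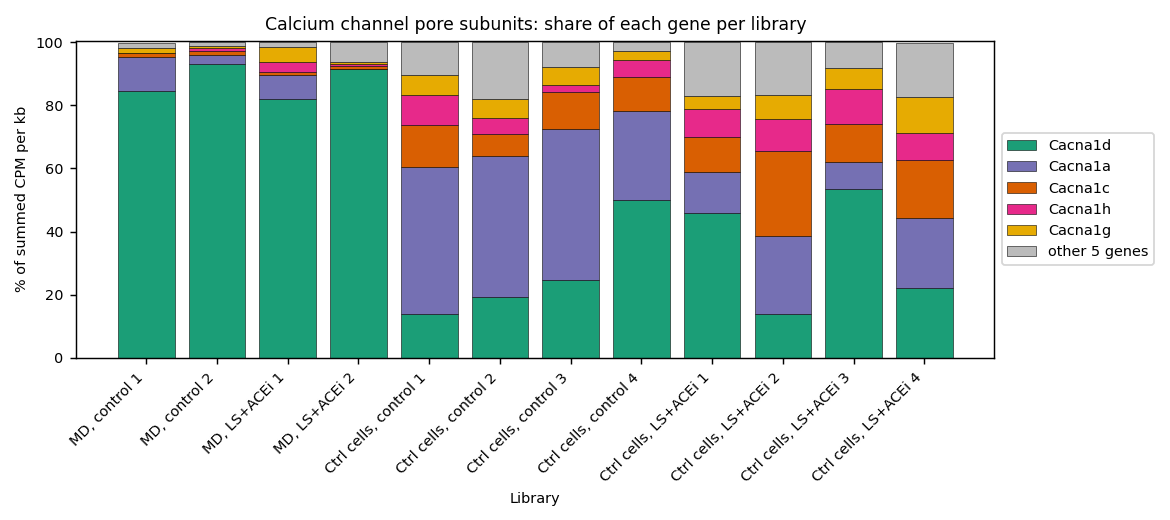
Share of each calcium channel pore gene (vertical axis, percent of the summed CPM per kb of the 10 genes) in each of the 12 libraries (horizontal axis; MD, macula densa; LS+ACEi, low salt with enalapril). Cacna1d fills 82.1% to 93.0% of the 4 macula densa bars and 13.8% to 53.5% of the 8 control-cell bars.

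Among calcium channel accessory subunits, which traffic the pores and shift their gating, 1 of 6 tested genes was called higher and 1 lower over both diets (16.7% each, against 7.48% and 13.9% of all genes). Cacna2d1 (alpha-2-delta-1, the target of gabapentinoids; chr5:15934691-16374511) was at 6.05 and 4.81 CPM in macula densa cells on control diet and at 18.4 and 11.2 CPM on LS+ACEi. Control cells held 2.84, 4.89, 2.29 and 4.13 CPM on control diet and 2.15, 2.94, 4.20 and 4.37 CPM on LS+ACEi. The populations overlapped on control diet and not on LS+ACEi, where the log2 fold change was 2.12 ± 0.37 (edgeR adjusted p = 0.00648). Averaged over diets it was 1.36 ± 0.26 (edgeR adjusted p = 0.00396).

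Cacnb2, a beta subunit partner of Cav1.2 in heart, was at 0.923 and 0.733 CPM in macula densa cells on control diet and at 1.92 and 0.656 on LS+ACEi. Control cells held 2.73 to 8.78 CPM, above all 4 macula densa libraries, and the log2 fold change on control diet was -2.57 ± 0.59 (edgeR adjusted p = 0.0250). Cacnb1, the beta subunit of skeletal muscle, was called higher on control diet alone, at 5.13 and 3.67 CPM against 2.08, 1.88, 1.71 and 1.76 (log2 fold change 1.24 ± 0.31, edgeR adjusted p = 0.0359). This call held in 9 of 20 alternative analyses. Cacnb3, the most abundant accessory subunit per length, was at 4.72 to 7.87 CPM in macula densa cells and 2.75 to 7.77 CPM in control cells, and was not called (log2 fold change averaged over diets 0.45 ± 0.26, edgeR adjusted p = 0.250).

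In macula densa cells the sodium channel signal lay mainly in a beta subunit. Scn4b (chr9:45138395-45154152) was at 45.4 and 48.4 CPM in macula densa cells on control diet and at 33.7 and 44.3 CPM on LS+ACEi. In control cells it was at 1.53, 4.51, 11.2 and 19.6 CPM on control diet and at 6.23, 6.37, 11.3 and 7.22 CPM on LS+ACEi. The populations did not overlap in CPM on either diet, and the highest control-cell value belonged to replicate 4 on control diet, without which the log2 fold change on that diet was 3.01. As for Cacna1d, the direction turned per 1000 counts of Slc12a1, at 18 to 25.7 in macula densa and 26.4 to 75.9 in control cells. Slc12a1 itself was raised by more, with a log2 fold change of 3.28 averaged over diets, so the ratio alone does not measure limb content. Log2 fold changes of Scn4b were 2.34 ± 0.62 on control diet and 2.33 ± 0.63 on LS+ACEi (edgeR adjusted p = 0.0433 and 0.0448), each called in 10 of 20 alternative analyses. Averaged over diets the value was 2.34 ± 0.44 (edgeR adjusted p = 0.00376), called in all 19 alternatives run.

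Scn2b (beta-2), which lies just before Scn4b on the same strand (chr9:45117782-45130070), was also called higher over both diets, at far lower levels. It was at 0.616 and 1.30 CPM, then 1.34 and 1.64 CPM, in macula densa cells on control diet and on LS+ACEi, and at 0 to 0.490 CPM in control cells. The log2 fold change was 2.09 ± 0.63 (edgeR adjusted p = 0.0325), called in 11 of 19 alternatives.

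Of the pores that these subunits join, 7 were tested and none was called in any comparison by edgeR. Of all genes, 6.61% were called on control diet, 7.27% on LS+ACEi and 21.3% averaged over diets. At an unadjusted p under 0.05 there was 1 pore (14.3%) on each diet and when averaged over diets. The shares of all genes were then 24.2%, 25.3% and 34.4%. The 10 sodium channel pores together summed to 3.28 to 6.51 CPM in macula densa libraries and 1.86 to 11.8 CPM in control cells, while the 4 beta subunits summed to 36.6 to 50.8 and 2.62 to 20.5 CPM. Scn4a, the pore of skeletal muscle, had the value nearest to a call. It was at 1.33 and 1.22 CPM in macula densa cells on control diet and at 0.958 and 0 on LS+ACEi, against 0 to 0.490 CPM in control cells (log2 fold change averaged over diets 2.08 ± 0.80, edgeR adjusted p = 0.0844). Scn7a, a sodium-sensing relative, was at 0 to 1.15 CPM and 0 to 4.0 CPM (log2 fold change -1.68 ± 0.96, edgeR adjusted p = 0.242), and Scn11a was at 0 to 0.958 and 0 to 1.22 CPM.

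**Figure D3:**
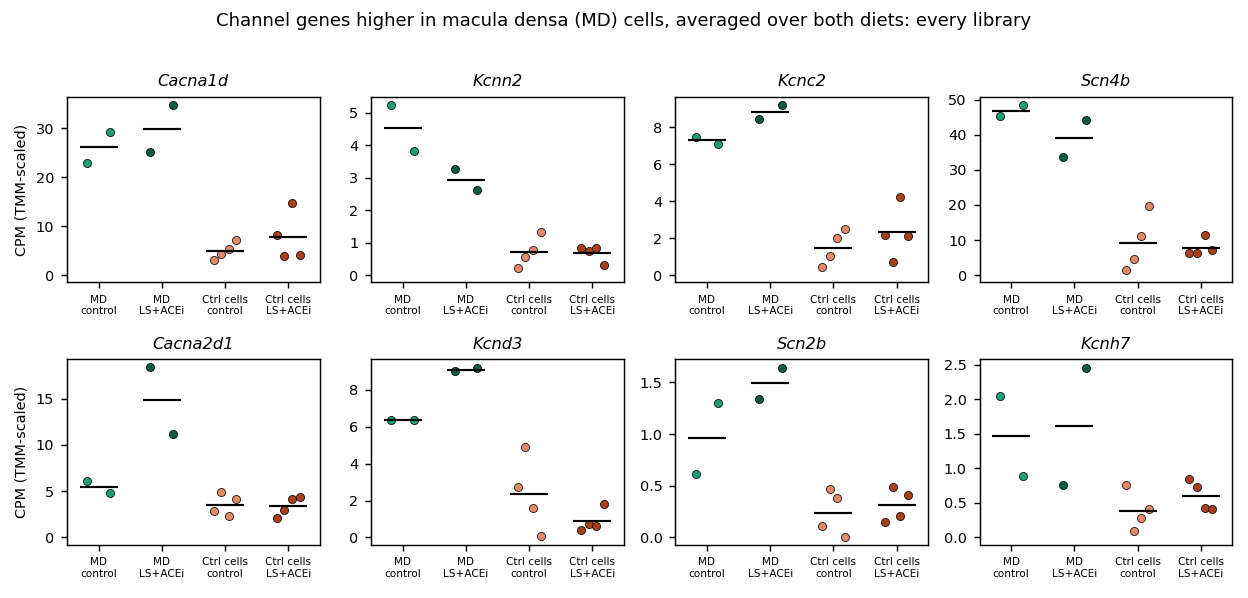
CPM in every library of the 8 channel genes called higher in macula densa (MD) cells over both diets, 1 panel per gene; points are libraries, lines group means, and the horizontal axis holds the 4 groups (LS+ACEi, low salt with enalapril). Scn4b sits between 33.7 and 48.4 CPM in the 4 macula densa libraries and at most at 19.6 in the 8 control-cell libraries, and Cacna2d1 is highest in the macula densa libraries on LS+ACEi.

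Voltage-gated potassium channel pores were called in both directions, 3 of 11 tested genes higher and 3 lower over both diets (27.3% each, against 7.48% and 13.9% of all genes). Kcnc2 (Kv3.2), which ends action potentials quickly in fast-spiking neurons, was at 7.49 and 7.09 CPM in macula densa cells on control diet and at 8.43 and 9.19 on LS+ACEi. Control cells held 0.437, 1.03, 2.0 and 2.48 CPM on control diet and 2.15, 0.734, 4.20 and 2.14 CPM on LS+ACEi. The populations did not overlap, and the log2 fold change was 2.10 ± 0.39 averaged over diets (edgeR adjusted p = 0.00324) and 2.28 ± 0.54 on control diet (edgeR adjusted p = 0.0287).

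Kcnd3 (Kv4.3), a fast inactivating A-type channel, was at 6.36 and 6.35 CPM in macula densa cells on control diet and at 9.0 and 9.19 CPM on LS+ACEi. Control cells varied more, at 2.73, 4.89, 1.62 and 0.103 CPM on control diet and at 0.384, 0.734, 0.630 and 1.83 on LS+ACEi. It was called on LS+ACEi (log2 fold change 3.29 ± 0.81, edgeR adjusted p = 0.0328) and averaged over diets (2.36 ± 0.55, edgeR adjusted p = 0.0105). Kcnh7 (Erg3), of the family that shapes repolarisation, was at 2.05 and 0.896 CPM, then 0.766 and 2.46 CPM, in macula densa cells and at 0.0940 to 0.845 CPM in control cells, so that the populations overlapped on LS+ACEi. Its log2 fold change averaged over diets was 1.65 ± 0.53 (edgeR adjusted p = 0.0456), it was called in 7 of 19 alternatives, and its 3′ end overlaps Gca on the opposite strand, itself at 8.72 to 17.7 and 1.53 to 9.61 CPM.

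The potassium channel pore Kcnq1 (Kv7.1), whose slow current is formed with Kcne1 in heart, inner ear and epithelia, was lower in macula densa cells. It was at 3.90 and 3.5 CPM on control diet and at 4.41 and 1.97 CPM on LS+ACEi, against 4.81, 10.7, 11.7 and 30.9 CPM and 14.8, 8.57, 9.66 and 9.46 CPM in control cells (log2 fold change averaged over diets -1.86 ± 0.45, edgeR adjusted p = 0.0123). Its partner Kcne1 was at 0.821 and 0.652 CPM on control diet and at 1.34 and 4.27 CPM on LS+ACEi, against 3.61, 10.1, 13.5 and 39.3 CPM and 10.1, 5.39, 4.20 and 13.6 CPM (-3.03 ± 0.66, edgeR adjusted p = 0.00749). On control diet Kcne1 did not overlap between the populations (log2 fold change -4.48 ± 1.0, edgeR adjusted p = 0.0217), and on LS+ACEi macula densa replicate 2 reached into the control-cell range. For both genes the highest value belonged to control-cell replicate 4 on control diet, the library richest in principal cell and intercalated cell markers. Among control-cell libraries it was also the richest in markers of distal convoluted and connecting tubule (641 CPM, the others 69.1 to 176). The same held for thick ascending limb markers (1620 CPM, the others 216 to 1060). The principal cell and intercalated cell lists summed to 10.7 to 36.0 and 17.1 to 31.5 CPM in macula densa libraries and 102 to 808 and 21.9 to 350 CPM in control cells (7 of 7 and 4 of 6 genes called lower over both diets). The part of any of these cell types in the Kcnq1 and Kcne1 differences was not tested. Without that library the log2 fold change averaged over diets was -1.53 for Kcnq1 and -2.60 for Kcne1, and that of Kcne1 on control diet was -3.62. The Kcnq1 call was lost without macula densa replicate 2 of either diet.

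Kcnq1ot1, the long noncoding transcript that runs antisense through Kcnq1 and silences neighbouring genes on the paternal chromosome, had the highest CPM of the 103 genes when summed over libraries, at 60.0 to 95.1 CPM in macula densa cells and 25.5 to 97.8 CPM in control cells. It was not called (log2 fold change averaged over diets 0.34 ± 0.32, edgeR adjusted p = 0.480), and since it shares exonic sequence with Kcnq1 on the opposite strand, the split of reads between the pair is uncertain. In all, 18 of the 103 genes overlap exons of another gene in the table, always on the opposite strand, among them Cacnb2 (Gm10849), Kcnab1 (A330015K06Rik), Kcnn1 (A230052G05Rik) and Kcnn2 (AC121957.1), and their counts carry the same uncertainty. The other noncoding member, Kcnmb4os2, was at 0 in all macula densa libraries and at 0 to 0.437 CPM in control cells, and was not tested.

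The other 2 lower potassium channel pores were near the floor in macula densa cells. Kcnh5 (Eag2) had 2, 1, 0 and 1 counts in the 4 macula densa libraries and 0.656 to 4.75 CPM in control cells, a ratio of 20 on control diet (counting interval 6.67 to 98.6) and 32.5 on LS+ACEi (5.69 to 1300). It was called on control diet, on LS+ACEi and averaged over both (edgeR adjusted p = 0.0270, 0.0372 and 0.00233). Kcng2, a silent subunit that only acts joined to other pores, had no count in any macula densa library and was at 0.0769 to 2.62 CPM in control cells, at least 2.84-fold lower over both diets at a floor of 3 counts per library (edgeR adjusted p = 0.0209).

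Calcium-activated potassium channels of the small-conductance kind moved apart. Kcnn2 (SK2) was at 5.23 and 3.83 CPM in macula densa cells on control diet and at 3.26 and 2.62 CPM on LS+ACEi. Control cells held 0.219, 0.564, 0.762 and 1.34 CPM on control diet and 0.845, 0.734, 0.840 and 0.305 CPM on LS+ACEi. Every macula densa library was above every control-cell library, with a log2 fold change of 2.62 ± 0.54 on control diet (edgeR adjusted p = 0.0160) and 2.37 ± 0.40 averaged over diets (edgeR adjusted p = 0.002).

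Kcnn3 (SK3), a channel of endothelium and smooth muscle as well as neurons, was at 0.205 and 0.163 CPM in macula densa cells on control diet and at 0.766 and 0.164 CPM on LS+ACEi, which is 1 to 4 counts per library. Control cells held 2.19, 2.07, 2.38 and 2.79 CPM on control diet and 1.15, 1.22, 0.630 and 1.53 CPM on LS+ACEi. On control diet the populations were well apart, with a log2 fold change of -3.59 ± 0.66 (edgeR adjusted p = 0.00943). Of the endothelium markers, 8 of 8 were called lower in macula densa cells over both diets, and their part in the Kcnn3 difference was not tested. In control-cell replicate 4 on control diet, where those markers summed to 46.4 CPM, Kcnn3 was at 2.79 CPM, the highest value of its group.

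Kcnma1 (BK), the large-conductance calcium-activated channel, and Kcnn1 (SK1) were not called between populations. Kcnma1 was at 3.90 and 3.5 CPM in macula densa cells on control diet against 0.765, 0.564, 1.05 and 0 CPM in control cells (log2 fold change 2.60 ± 0.75, edgeR adjusted p = 0.0575), and Kcnn1 at 1.33 and 3.26 CPM against 0.103 to 0.658 CPM (2.60 ± 0.85, edgeR adjusted p = 0.0861).

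Inward rectifiers pass potassium inward more readily than outward and hold the resting potential. None of 4 tested genes was called on a single diet by edgeR. Of all genes, 6.61% were called on control diet and 7.27% on LS+ACEi. At an unadjusted p under 0.05 there were 2 on control diet (50%, against 24.2% of all genes) and 0 on LS+ACEi (against 25.3%). Over both diets 1 was called lower (25%, against 13.9% of all genes). Kcnj5 (GIRK4), a G protein-gated rectifier, was at 0.513, 0, 0.575 and 0.820 CPM in the 4 macula densa libraries. Control cells held 12, 9.96, 8.95 and 0 CPM on control diet and 1.61, 6.61, 1.26 and 7.12 CPM on LS+ACEi, the 0 belonging to replicate 4 (log2 fold change averaged over diets -3.74 ± 1.09, edgeR adjusted p = 0.0291). Without macula densa replicate 1 on control diet the value was -5.80, and the call was lost in 5 of 19 alternatives, among them those without macula densa replicate 2 on control diet or either macula densa replicate on LS+ACEi. Control-cell replicate 4 had 43.7 CPM of summed podocyte markers against 689 to 1350 in the other 3 libraries of its group. Endothelium markers (46.4 against 858 to 1560 CPM) and leukocyte markers (8.68 against 30.9 to 66.7 CPM) were also lowest there. The part of these or other cell types in the Kcnj5 difference was not tested. Kcnj15, the most abundant rectifier per length, was at 4.31 to 10.6 CPM and 1.96 to 7.92 CPM (log2 fold change 0.47 ± 0.36, edgeR adjusted p = 0.395), and Kcnj12 was at 0 to 0.958 and 0 to 2.45 CPM.

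Among two-pore-domain channels, which leak potassium at rest, Kcnk6 (TWIK-2) was called lower over both diets. It had 3, 0, 1 and 0 counts in the macula densa libraries. Control cells held 5.58, 4.32, 2.10 and 0 CPM on control diet and 0.922, 2.94, 1.26 and 3.26 CPM on LS+ACEi, a ratio of 21.9 (counting interval 7.30 to 107) and 22.1 (3.83 to 888), with an edgeR adjusted p over both diets of 0.0232. The 0 was again in control-cell replicate 4, and the call was lost without macula densa replicate 2 on control diet or either on LS+ACEi. Its relative Kcnk1, the most abundant channel transcript per length, did not pass the test, at 26.9 to 32.9 CPM in macula densa cells and 10.4 to 45.2 CPM in control cells (log2 fold change averaged over diets 0.41 ± 0.27, edgeR adjusted p = 0.319). Kcnk5 (TASK-2), an alkaline-activated channel, was at 6.36, 5.46, 5.94 and 1.80 CPM in macula densa cells and at 0 to 3.43 CPM in control cells (1.37 ± 0.52, edgeR adjusted p = 0.0803).

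The accessory gene Kcnab1, a cytoplasmic beta subunit that speeds inactivation of Kv1 channels, had 11 and 3 counts in macula densa cells on control diet and none on LS+ACEi. Control cells held 0.826 to 1.14 CPM on control diet and 0.615 to 2.45 CPM on LS+ACEi, where the gene was at least 2.40-fold lower in macula densa cells (edgeR adjusted p = 0.0362). The related Kcnab2 was at 0.164 to 1.74 CPM and 0.210 to 1.96 CPM and was not called (log2 fold change 0.45 ± 0.61, edgeR adjusted p = 0.649). Kcne3, a small beta subunit of Kcnq1, was at 0 to 0.192 CPM in macula densa cells and 0 to 1.09 CPM in control cells, too few counts to be tested.

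**Figure D4:**
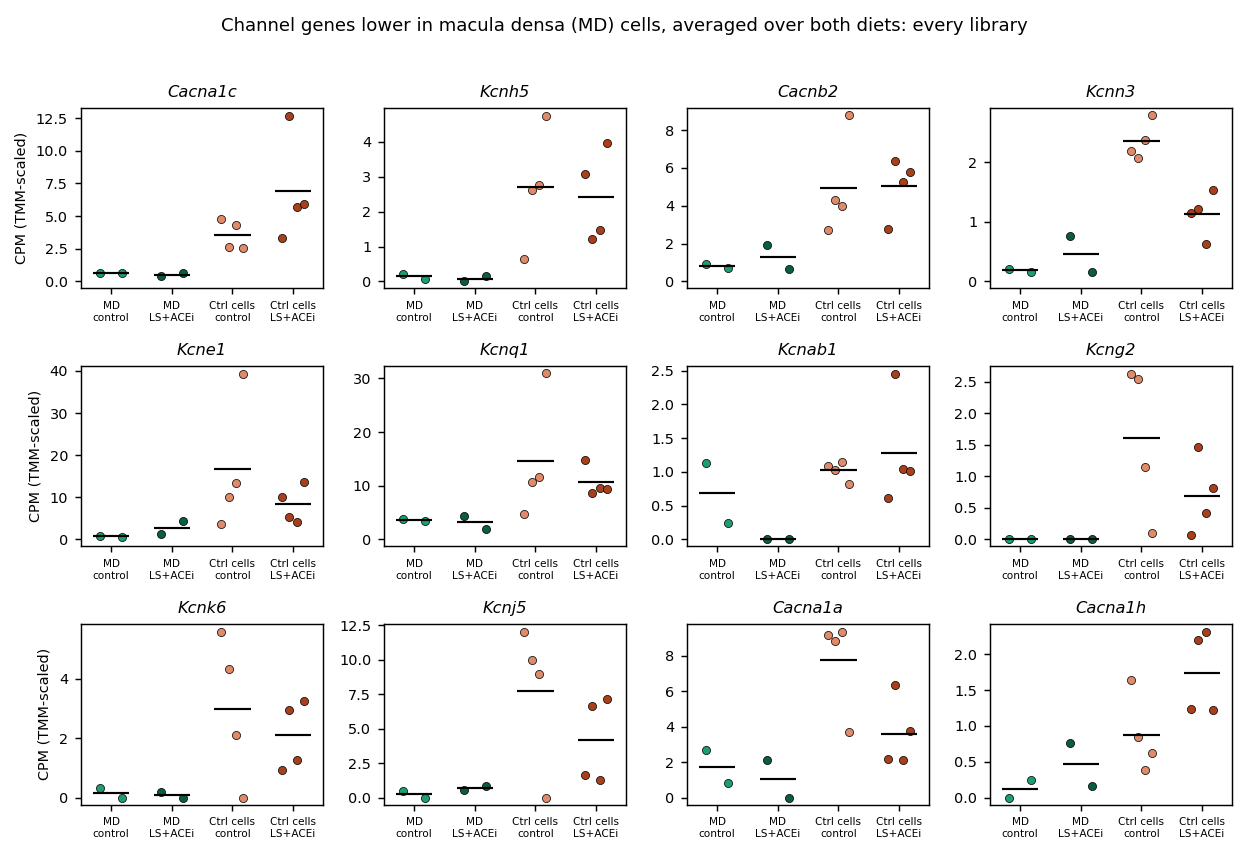
CPM in every library of the 12 channel genes called lower in macula densa (MD) cells over both diets, 1 panel per gene; points are libraries, lines group means, and the horizontal axis holds the 4 groups (LS+ACEi, low salt with enalapril). Kcng2 is at 0 in the 4 macula densa libraries, and Kcne1 and Kcnq1 have their highest point in a control-cell library on control diet, at 39.3 and 30.9 CPM.

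The control cells held less Slc12a1 RNA, and channel counts were also set against Slc12a1 counts of the same library. Macula densa cells express Slc12a1 themselves, and its log2 fold change averaged over diets was 3.28. A gene raised by less than that tends to have a lower ratio there, so the ratio alone does not measure limb content. For Scn4b the median was 22.9 counts per 1000 counts of Slc12a1 in macula densa libraries and 43.5 in control cells, and for Cacna1d 13.9 and 31.7. On this scale both genes had lower, not higher, values in macula densa libraries, and the populations did not overlap. The other 6 genes called higher in macula densa cells over both diets also had a lower median there on this scale, with ranges that overlapped. Medians were 4.36 in macula densa and 9.78 in control cells for Kcnc2, 4.08 and 5.52 for Kcnd3, 1.81 and 3.82 for Kcnn2, 4.48 and 14.3 for Cacna2d1, 0.801 and 2.21 for Kcnh7, and 0.679 and 2.12 for Scn2b. The part of thick ascending limb content in the differences in CPM was not tested.

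The LS+ACEi treatment, a combined stimulus that reduces salt delivery to the macula densa and blocks angiotensin II formation, changed no channel gene at the adjusted threshold. In macula densa cells 0 of 52 genes were called by edgeR (0% of all genes), and 8 had an unadjusted p under 0.05 (15.4%, against 11.2% of all genes). The DESeq2 Wald test also called 0, with 10 at an unadjusted p under 0.05. The median log2 fold change was 0.27, and -0.02 over all genes.

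The smallest p in macula densa cells was that of Cacna2d1, whose values are given above. The group mean was 5.43 ± 0.881 CPM (SD, n = 2) on control diet and 14.8 ± 5.12 CPM (SD, n = 2) on LS+ACEi, with no overlap (log2 fold change 1.44 ± 0.43, edgeR adjusted p = 0.296). In control cells the same means were 3.54 ± 1.19 and 3.42 ± 1.06 CPM (SD, n = 4). The difference between these diet effects was 1.5 ± 0.54 in log2 and was not called (edgeR adjusted p = 0.643).

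Among calcium-activated potassium channels in macula densa cells, Kcnma1, Kcnn1 and Kcnn2 had lower values on LS+ACEi and Kcnn3 did not (log2 fold change 1.24 ± 0.82, edgeR adjusted p = 0.629), and none of these passed the test. Kcnma1 was at 0.383 and 1.31 CPM against 3.90 and 3.5 on control diet (log2 fold change -2.08 ± 0.95, edgeR adjusted p = 0.443). Kcnn1 had 1 and 2 counts against 13 and 40, a ratio of 9.08 with a counting interval of 2.94 to 45.4 (edgeR adjusted p = 0.375). Cacnb1 also had lower values, at 1.92 and 2.30 CPM against 5.13 and 3.67 (-1.05 ± 0.38, edgeR adjusted p = 0.360). The 8 calcium- or sodium-activated potassium channels summed to 11.5 and 11.2 CPM on control diet and 5.56 and 5.09 CPM on LS+ACEi in macula densa cells, and to 4.16 to 6.29 and 4.84 to 6.12 CPM in control cells. That sum was picked out after its values were seen and was not tested.

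Kcnab1 went from 14 counts to 0, at least 1.29-fold lower (edgeR adjusted p = 0.312), and Cacna1i, a T-type pore, from 0 counts to 5, at least 1.54-fold higher (edgeR adjusted p = 0.417).

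In control cells 0 of 52 genes were called between diets by edgeR (0.00705% of all genes) and 0 by DESeq2, with 3 and 4 at an unadjusted p under 0.05 (edgeR 5.77%, against 6.45% of all genes). The 3 were Kcnn3, Cacna1c and Cacnb3, with log2 fold changes of -1.02 ± 0.43, 0.91 ± 0.39 and 0.71 ± 0.31 (edgeR adjusted p = 0.732, 0.741 and 0.741). For Kcnn3 the 4 libraries on LS+ACEi, at 0.630 to 1.53 CPM, were all below the 4 on control diet, at 2.07 to 2.79 CPM. Next came Scn3a, a sodium channel pore of the developing brain, and Cacna1a, with 1.72 ± 0.84 and -1.15 ± 0.60 (edgeR adjusted p = 0.829 and 0.863).

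No diet effect was called as different between macula densa and control cells: 0 of 52 genes by edgeR (0% of all genes) and 0 by DESeq2, with 8 at an unadjusted p under 0.05 by each (edgeR 15.4%, against 7.03% of all genes). The smallest p-values were those of Kcnab1, Cacna2d1, Kcnma1 (-3.16 ± 1.18), Cacnb1 (-1.24 ± 0.47) and Kcnn1, with edgeR adjusted p of 0.633 to 0.684. With 2 libraries in each macula densa group, effects that did not pass remain undetected at this depth and replication, not absent.

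**Figure D5:**
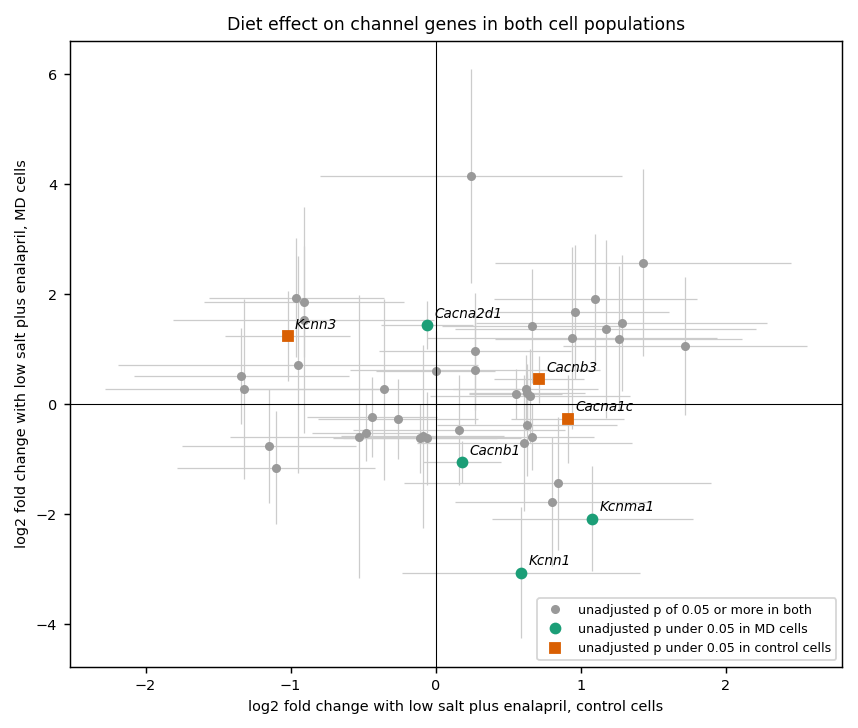
Log2 fold change with LS+ACEi in control cells (horizontal axis) and in macula densa cells (vertical axis) for 46 tested channel genes; bars are standard errors of the edgeR fit, and coloured points have an unadjusted p under 0.05 in 1 population. Cacna1i, Kcnab1 and Kcng2, at 0 in all libraries of a macula densa group, are left out; Cacna2d1 lies at 1.44 in macula densa cells, Kcnn1 rests on 3 counts in macula densa cells on LS+ACEi, and no gene passed the adjusted threshold on either axis.

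Proteins that bind or regulate these channels were described from 3 lists. Of 21 auxiliary and scaffold partners 7 were tested, and over both diets 1 was called higher and 1 lower, where 21.3% of all genes were called, with a median log2 fold change of 0.14. Ankyrin G (Ank3), which anchors sodium channels in the membrane, was at 106, 131, 138 and 125 CPM in the macula densa libraries and at 28.0 to 84.6 CPM in control cells (log2 fold change 1.39 ± 0.28, edgeR adjusted p = 0.00520). Fgf12, an intracellular factor that binds sodium channel pores, was at 0 to 0.410 CPM against 0.547 to 1.86 CPM (edgeR adjusted p = 0.0145).

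Of 12 kinases, ligases and small GTPases that regulate channels, all were tested and over both diets 3 were called higher and 2 lower, where 7.48% and 13.9% of all genes were (median log2 fold change -0.12). The kinase Wnk1, which controls cation-chloride cotransport and potassium channel surface level, was at 334, 422, 689 and 690 CPM in macula densa libraries and at 93.9 to 278 CPM in control cells (1.59 ± 0.22, edgeR adjusted p = 0.000515). The aldosterone-induced kinase Sgk1 was at 9.64, 2.85, 2.30 and 0 CPM against 6.30 to 74.8 CPM (-4.17 ± 0.77, edgeR adjusted p = 0.00336). The RGK GTPases, which inhibit voltage-gated calcium channels through their beta subunits, were split among the 4 members tested. Gem was not called, at 0.984 to 2.97 CPM in macula densa and 2.07 to 4.65 CPM in control cells (log2 fold change -0.59 ± 0.31, edgeR adjusted p = 0.195). Rrad was at 2.53 to 7.22 CPM against 1.2 to 4.20 CPM (0.92 ± 0.27, edgeR adjusted p = 0.0303) and Rem2 at 0 to 1.15 against 0 to 0.231 CPM (edgeR adjusted p = 0.0465). Rem1 was at 0 to 0.192 CPM against 0.103 to 2.95 CPM (edgeR adjusted p = 0.0319). Of 13 other cation channels of the same fold, 3 were tested and none was called in any of the 6 comparisons. Over both diets 21.3% of all genes were called. No gene of the 3 lists was called between diets.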

How the data were processed

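The authors deposited 1 table of estimated counts by gene and library, of which 16.1% were not whole; these were rounded before testing. The submitters' processing notes name STAR 2.61, Partek and the mm10 build; counting settings, use of strand and filters are not given in the sources used here. No column lacked a sample (0 columns). Per the labels, libraries were made together from total RNA with a SMARTer Pico kit that keeps strand. Symbols and positions of all 103 channel genes equalled those of GENCODE M21 (GRCm38), from which exon lengths came; promoters came from RefSeq (GRCm38.p6).

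Genes passing filterByExpr of edgeR 4.0.16 in R 4.3.3 (count minimum 10, total minimum 15) were scaled by TMM and fitted with glmQLFit and glmQLFTest over all 12 libraries, 1 coefficient per group and no covariates, with Benjamini-Hochberg adjustment at 0.05 over 14180 genes. The fit was tested on simulated data. Comparisons were cell populations on each diet and averaged, diets within each population, and their interaction. Counting intervals are 95% exact intervals of a ratio of counts; folds against groups at 0 use 3 counts per library. The members, classes and lists were chosen with earlier results of these data known.

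Named genes were those called in any comparison, the 5 smallest p-values of each diet comparison and the interaction, the 3 most abundant per length in each class, noncoding or overlapping genes, genes of the sort (Nos1, Pappa2, Slc12a1) and called genes of the partner lists; other genes were named after their values were seen. Single values of 3 tested members are not reported here or drawn, though counts and sums include them. Alternatives were DESeq2 1.42.0 size factors and Wald test, library totals alone, no filter, only the groups compared, blocks for the numbers in titles or descriptions, omission of Gm42418 and Mir6236, and omission of each library in turn.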

Additional observations from a re-analysis of the deposited data

Results flagged for a closer look

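In groups of 4 libraries, 38 channel genes were checked for a library far from the other 3, giving 76 sets, of which 4 had one. Chance gives about 1 in 20, or 3.8 here. Cacna1a in control cells on control diet was at 1.98 log2 CPM in replicate 4 and at 3.18 to 3.26 in the other 3 libraries. Kcnj5 was at -2.13 log2 CPM (0 counts) in replicate 4 of that group and at 3.20 to 3.62 in the others. Scn7a was also at -2.13 log2 CPM (0 counts) in replicate 4 and at 1.65 to 2.08 in the others. Kcnn2 in control cells on LS+ACEi was at -0.91 log2 CPM in replicate 4 and at -0.05 to 0.10 in the other 3 libraries.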

How the results depend on the processing

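None of the 52 fold changes of named channel genes, each a gene in 1 comparison, changed direction in any alternative analysis. Of the alternative values, 846 kept their side of the threshold and 153 no longer passed it. The 846 include all values of the diet and interaction comparisons, which had no call to lose. The share of all genes called in each alternative is not given, so the counts below are not particular to channel genes. The 10 genes called on control diet became 18 with the DESeq2 Wald test, 3 when only the groups compared were fitted, and 0 to 17 when leaving out each library. The 7 called on LS+ACEi became 0 to 12 when leaving out each library, and the 20 called over both diets 14 to 21. Counts between diets and for the interaction were 0 in each alternative. Scaling by library totals alone moved the median log2 fold change of all genes over both diets from -0.06 to 0.14, and 18 of the 20 calls were kept. The descriptions give each macula densa library a number shared with 1 control-cell library, followed by cell or ctrl, without saying what the number marks. Deviations from group means correlated by -0.037 to 0.227 between these and by -0.377 to 0.278 between libraries with the same title number. Within a macula densa group of 2 libraries the deviations mirror each other, so these correlations cannot decide whether libraries are paired. The main fit used no pairing because the labels state none. With a replicate block for title numbers the calls were 4, 5 and 10 for control diet, LS+ACEi and both. With a replicate block for description numbers they were 13, 13 and 17, and 8 of 10, 6 of 7 and 16 of 20 earlier calls stayed; the call of Kcnn3 on control diet was lost. The latter used the 8 libraries that share a number and was not run between diets. Over both diets Cacna1c, Cacna1d, Cacna2d1, Cacnb2, Kcnc2, Kcne1, Kcnh5, Kcnn2, Kcnn3 and Scn4b were called in all 19 alternatives. Depth limits genes under about 1 CPM, and the causes of these changes were not tested.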
